A study of Mus musculus with 10 samples.

Results

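The genes MGP_BALBcJ_G0013230, MGP_BALBcJ_G0016221 and Novel01434 were examined because their read counts were much lower in the cerebral cortex of mice carrying an HIV-1 gp120 transgene than in wild-type cortex. They are 3 of the 41880 genes listed in the deposited count table and were picked from the same libraries described here, so their difference between genotypes is a description and carries no test. The study sequenced messenger RNA from the cortex of 10 mice aged 12 months. The group called gp120tg holds 5 HIV-1 gp120 transgenic mice and the group called WT holds 5 age-matched wild-type mice, each library being taken as 1 mouse. The promoter that drives the transgene, the cells that express it, the founder line, the mouse strain and the animals' sex are not stated in the labels. Differences between genotypes in bulk tissue cannot tell apart fewer cells of a type and less RNA per cell.

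The gp120 glycoprotein forms the outer part of the HIV-1 envelope, and it is shed by infected cells and can act on cells that are not infected. In the brain, where the virus lives mainly in macrophages and microglia, the protein has long been studied as a cause of injury to neurons, and mice that make it serve as a model of HIV-associated neurocognitive disorder. An identifier that starts with MGP_BALBcJ has the form Ensembl uses for gene models of the BALB/cJ mouse strain, and an identifier such as Novel01434 is a numbered gene model without that prefix. The files do not pair either kind with a gene symbol, and 0 identifiers matched the mouse gene tables used here. The function, position, length and sequence of the 3 genes are therefore not stated, and the tissue could not be checked against cell type markers. Levels are given as CPM, the read count per 1000000 reads of the library after scaling by its normalization factor, and they can be compared between libraries but not between genes, whose lengths are not known.

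Library totals ranged from 16451161 to 19774880 counts. On the second principal component of the libraries, which carried 19.2% of the variance, gp120tg replicate 4 and WT replicates 4 and 5 lay apart from the other 7. A further gene, MGP_BALBcJ_G0007527, had 7466 to 22039 counts in gp120tg replicates 3, 4 and 5 and at most 14 in each of the other 7 libraries. The main values were recomputed without each of these sets of 3 libraries.

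MGP_BALBcJ_G0013230 was nearly lost from the transgenic cortex. The 5 gp120tg libraries, in replicate order, held 3, 4, 10, 4 and 6 reads of it, and the 5 WT libraries held 192, 258, 194, 277 and 295. All transgenic libraries lay far below all WT libraries, and the lowest WT library was 22.5 times as high as the highest gp120tg library on the CPM scale. The mean level was 0.283 ± 0.148 CPM in gp120tg and 14.4 ± 2.28 CPM in WT (SD, n = 5 per group), so gp120tg kept 1.97% of the WT mean. The fitted log2 fold change, gp120tg over WT, was -5.64 with a standard error of 0.27. Pooling the 27 reads of the 5 gp120tg libraries and the 1216 reads of the 5 WT libraries, the share kept was 2.03% with a 95% counting interval of 1.33% to 2.97%, which covers counting error only. Reads were thus assigned to the gene in each of the 5 gp120tg libraries. Whether these few reads arose from the gene itself was not tested.

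Novel01434 showed a fall of the same depth. Its counts were 3, 3, 1, 2 and 8 in gp120tg replicates 1 to 5 and 239, 230, 165, 214 and 193 in WT replicates 1 to 5. The groups did not overlap, and the lowest WT library was 24.9 times as high as the highest gp120tg library on the CPM scale. The mean level was 0.175 ± 0.135 CPM in gp120tg and 12.4 ± 2.20 CPM in WT (SD, n = 5 per group), with a log2 fold change of -6.08 and a standard error of 0.33. The share kept was 1.41% from the group means, and 1.49% from the 17 reads of gp120tg and the 1041 reads of WT pooled (95% counting interval 0.866% to 2.40%). That interval overlaps the one for MGP_BALBcJ_G0013230, so at this depth the counts do not separate the losses of the 2 genes. Of the 17 reads, 8 came from gp120tg replicate 5, which had the highest level of the group at 0.406 CPM.

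**Figure D1:**
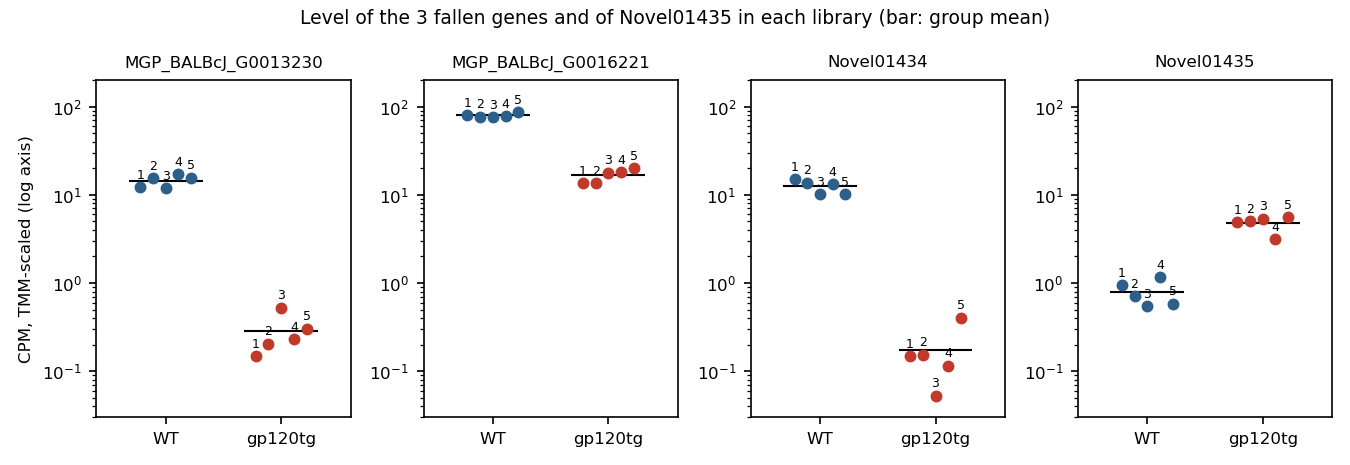
Level in CPM (log axis) of MGP_BALBcJ_G0013230, MGP_BALBcJ_G0016221, Novel01434 and the row numbered next to Novel01434, Novel01435, in the 5 WT (blue) and 5 gp120tg (red) libraries. Digits are replicate numbers and bars are group means. MGP_BALBcJ_G0013230 and Novel01434 sit below 1 CPM in every gp120tg library, MGP_BALBcJ_G0016221 stays at 13.5 to 19.98 CPM there, and Novel01435 is higher in gp120tg.

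MGP_BALBcJ_G0016221 was reduced but kept a readily measured level. Its counts were 275, 264, 337, 311 and 394 in gp120tg replicates 1 to 5 and 1274, 1290, 1235, 1274 and 1639 in WT replicates 1 to 5. The groups did not overlap, although the gap was narrower than for the other two, with the lowest WT library 3.78 times as high as the highest gp120tg library in CPM. The mean level was 16.6 ± 2.89 CPM in gp120tg and 79.6 ± 4.46 CPM in WT (SD, n = 5 per group), so that 20.8% of the WT mean was kept (log2 fold change -2.26, standard error 0.12). The counting interval of the share kept, 20.4% to 22.7% at the 95% level, lies wholly above those of MGP_BALBcJ_G0013230 and Novel01434. Single gp120tg libraries kept 17.0% to 25.1% of the WT mean, against 1.03% to 3.66% for MGP_BALBcJ_G0013230 and 0.424% to 3.26% for Novel01434. The 3 genes therefore formed 2 kinds of fall, near-complete loss in MGP_BALBcJ_G0013230 and Novel01434 and a partial reduction in MGP_BALBcJ_G0016221, and no library of one kind reached the range of the other.

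The starting levels differed as well. By WT mean, MGP_BALBcJ_G0016221 ranked 3081 among the 16941 genes that passed the filter on low counts, MGP_BALBcJ_G0013230 ranked 9039 and Novel01434 ranked 9470, so both near-complete losses concerned genes near the middle of the ranking by CPM. In gp120tg they ranked 16921 and 16930, at the bottom of the tested genes, while MGP_BALBcJ_G0016221 ranked 8697. These ranks do not take gene length into account. Both genes of near-complete loss passed the filter through their WT libraries alone.

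Within a genotype, the partial reduction was the most even of the 3. The coefficient of variation of MGP_BALBcJ_G0016221 was 5.61% in WT and 17.4% in gp120tg, where counting alone gives 2.73% and 5.62%. For MGP_BALBcJ_G0013230 it was 15.9% in WT and 52.1% in gp120tg, where counting gives 6.41% and 43.0%, and for Novel01434 it was 17.7% and 76.9%, where counting gives 6.93% and 54.2%. In the fit, the biological coefficient of variation was 21.2% for MGP_BALBcJ_G0013230, 14.5% for MGP_BALBcJ_G0016221 and 23.0% for Novel01434, each below the 26.0%, 18.1% and 27.2% of the trend at its abundance. Being below the trend is common, as 71.1% of all tested genes were.

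The residual level of MGP_BALBcJ_G0016221 was 13.6 and 13.5 CPM in gp120tg replicates 1 and 2 and 17.8, 18.05 and 19.98 CPM in replicates 3, 4 and 5. The latter are the 3 libraries that hold MGP_BALBcJ_G0007527, whose deviations from the group means followed those of MGP_BALBcJ_G0016221 with a Pearson r of 0.94 over the 10 libraries, a description in which all libraries of a group share its mean. This and the next genes were the closest of all those tested, so their likeness follows from the search and supports nothing. The 2 others were MGP_BALBcJ_G0006976 (r = 0.95) and MGP_BALBcJ_G0022545 (r = 0.94). MGP_BALBcJ_G0022545, a gene of 91.9 ± 11.3 CPM in WT (SD, n = 5), had 54.8 and 52.5 CPM in gp120tg replicates 1 and 2 and 79.7, 98.0 and 138 CPM in replicates 3, 4 and 5, and its group means did not differ past the threshold (edgeR, adjusted p = 0.832). Without replicates 3, 4 and 5, MGP_BALBcJ_G0016221 kept 17.2% of the WT mean and MGP_BALBcJ_G0013230 kept 1.24%. These replicates had the highest gp120tg levels of both genes, so both shares had to fall and nothing is read from that. For MGP_BALBcJ_G0013230 the difference rests on few reads, with 0.205 CPM in replicate 2 and 0.232 CPM in replicate 4. What the 3 mice have in common was not tested.

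Over their deviations from the group means, the 3 fallen genes did not form 1 pattern. Pearson's r over the 10 libraries was 0.59 between MGP_BALBcJ_G0013230 and MGP_BALBcJ_G0016221, 0.22 between MGP_BALBcJ_G0016221 and Novel01434 and -0.23 between MGP_BALBcJ_G0013230 and Novel01434. The gp120tg values of the 2 lost genes rest on few reads, which limits these coefficients. For MGP_BALBcJ_G0013230 the closest genes were MGP_BALBcJ_G0028144 (r = 0.93), MGP_BALBcJ_G0021507 (r = 0.89) and Novel01292 (r = 0.88), and for Novel01434 they were Novel00955 (r = 0.96), MGP_BALBcJ_G0006361 (r = 0.95) and Novel01415 (r = 0.93). None of these 6 genes passed the threshold between genotypes (edgeR, adjusted p of 0.351 to 0.937).

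The genes most alike in level, by Pearson's r of log2 CPM over the 10 libraries, were other genes that fell. This measure is set mainly by the gap between the genotypes. For MGP_BALBcJ_G0013230 they were MGP_BALBcJ_G0024316 (r = 0.99), MGP_BALBcJ_G0016221 itself (r = 0.99) and MGP_BALBcJ_G0024407 (r = 0.98). For MGP_BALBcJ_G0016221 they were MGP_BALBcJ_G0013230, MGP_BALBcJ_G0024406 (r = 0.99) and MGP_BALBcJ_G0024407 (r = 0.99), and for Novel01434 they were Novel01436 (r = 0.99), Novel01260 (r = 0.99) and MGP_BALBcJ_G0024406 (r = 0.99). MGP_BALBcJ_G0024316 went from 11.1 ± 0.501 to 2.43 ± 0.570 CPM (SD, n = 5 per group), keeping 21.8% of the WT mean, close to the share of MGP_BALBcJ_G0016221. The consecutive identifiers MGP_BALBcJ_G0024406 and MGP_BALBcJ_G0024407 differed in depth. The first went from 15.7 ± 1.56 to 0.623 ± 0.543 CPM and the second from 92.7 ± 5.17 to 46.9 ± 2.84 CPM (SD, n = 5 per group), which left 3.97% and 50.6% of the WT mean.

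Set among all genes, few had means this far below WT. Of 11989 tested genes with a WT mean of 5 CPM or more, 7 kept at most 5% of it, the limit used here for near-complete loss, and 10 kept more than 5% and at most 25%. All 7 of the first class and 6 of the 10 in the second were called by edgeR at an adjusted p under 0.05, beside 1.97% of all tested genes called lower. The classes were cut by the share kept in this same contrast and include the 3 picked genes, so these calls support nothing. The groups did not overlap in 6 of the 7 and 5 of the 10, which the cut also favours. Among all tested genes, 2.70% had every gp120tg library below every WT library. The other 4 of the second class, MGP_BALBcJ_G0036112, MGP_BALBcJ_G0035765, MGP_BALBcJ_G0021685 and MGP_BALBcJ_G0028438, had an adjusted p of 0.0505 to 0.262. In order of the share kept Novel01434 ranked 2, MGP_BALBcJ_G0013230 ranked 3 and MGP_BALBcJ_G0016221 ranked 15. At rank 1 stood MGP_BALBcJ_G0010729, with 2 reads in gp120tg replicate 4 and 0 in the other 4 gp120tg libraries against 58 to 140 reads in WT. Near-complete loss spanned 0.387% to 3.97% of the WT mean and the second class 6.38% to 22.2%, so no gene lay between 3.97% and 6.38%. A wider gap ran from 7.06% to 13.2%, so the limit of 5% is a chosen cut. Single gp120tg libraries of the first class passed that limit, up to 12.9% in MGP_BALBcJ_G0021319. MGP_BALBcJ_G0016221 had a higher WT mean than all but 1 of the 17 genes, the exception being MGP_BALBcJ_G0024145. Without WT replicate 3 both classes held 6 genes. Without gp120tg replicate 4 and WT replicates 4 and 5 they held 7 and 15 genes, and without the 3 that hold MGP_BALBcJ_G0007527 6 and 13.

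**Figure D2:**
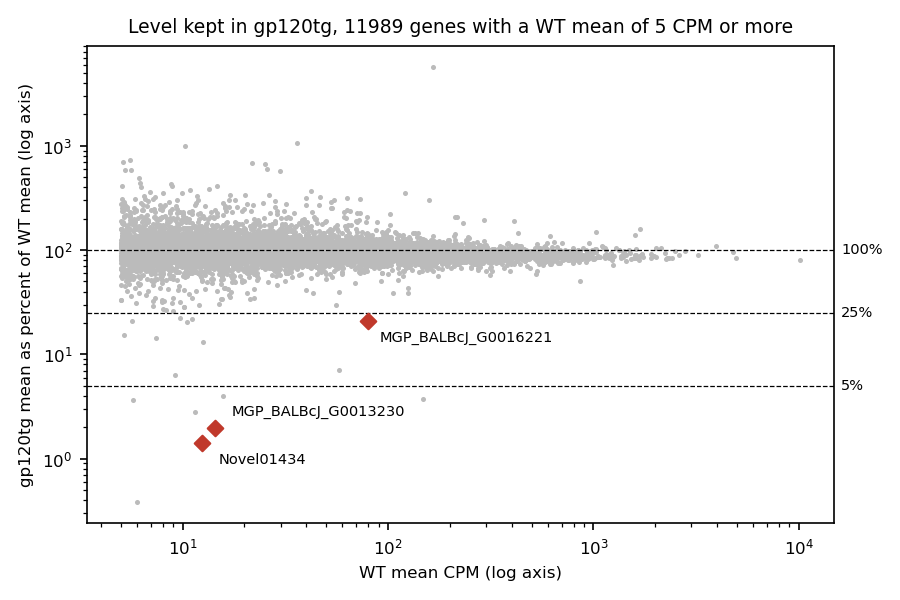
Mean level in gp120tg as a percent of the WT mean, against the WT mean in CPM (both log axes), for the 11989 tested genes with a WT mean of 5 CPM or more, 1 point per gene. Red diamonds mark the 3 fallen genes and dashed lines 5%, 25% and 100%. MGP_BALBcJ_G0013230 and Novel01434 lie under 5% with 5 other genes, and MGP_BALBcJ_G0016221 lies between 5% and 25% at a higher WT level.

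The deep falls differed in how evenly they ran through the mice. MGP_BALBcJ_G0024145 had 95 reads in WT replicate 1 and 6598 in WT replicate 3, a range that overlapped the 31 to 209 reads of gp120tg. MGP_BALBcJ_G0021319 kept 15 reads in gp120tg replicate 1 against 0 to 4 in the other gp120tg libraries, and MGP_BALBcJ_G0024406 kept 31 in gp120tg replicate 5 against 4 to 9. MGP_BALBcJ_G0028168 had 1, 1, 4, 11 and 13 reads in gp120tg replicates 1 to 5 and 115 to 262 in WT. The highest WT library was 1.43 times the lowest for MGP_BALBcJ_G0013230, 1.15 times for MGP_BALBcJ_G0016221 and 1.49 times for Novel01434, against 1.24 times for MGP_BALBcJ_G0024406, 1.65 times for MGP_BALBcJ_G0021319, 2.29 times for MGP_BALBcJ_G0028168, 2.87 times for MGP_BALBcJ_G0010729 and 67.4 times for MGP_BALBcJ_G0024145. The 3 genes were picked from these same libraries, so nothing is read from this order. Over all tested genes, every gp120tg library was below every WT library in 2.70%.

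**Figure D3:**
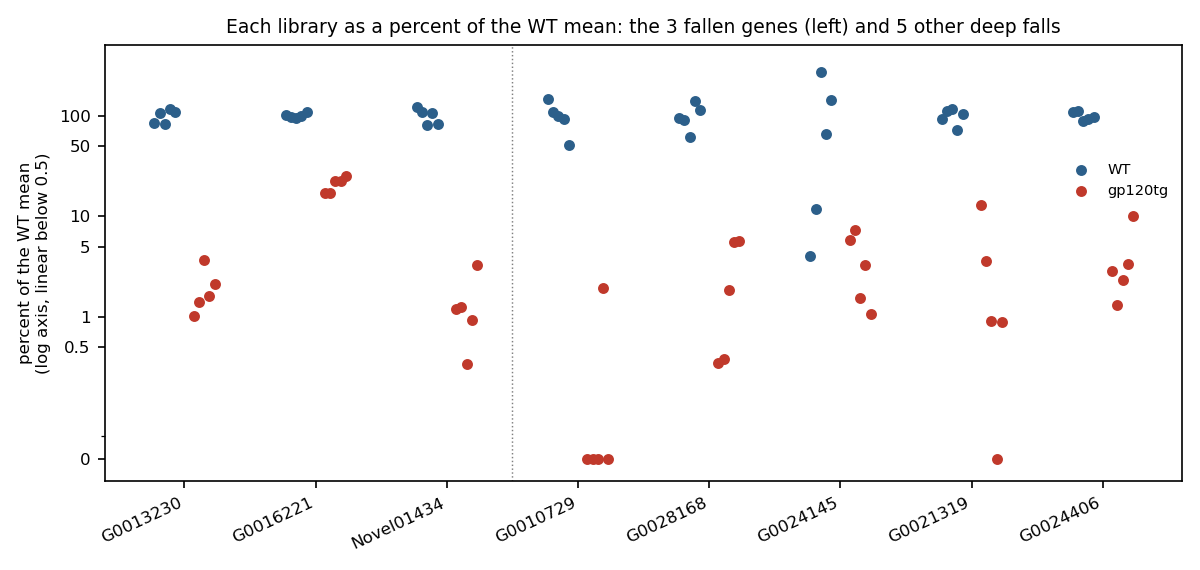
Level of each library as a percent of the gene's WT mean (log axis, linear below 0.5) for the 3 fallen genes, left of the dotted line, and for the 5 other genes with the lowest log2 fold change among those with a WT mean of 5 CPM or more, identifiers without their prefix. Blue points are WT and red points gp120tg libraries, 5 each. Both groups are tight for MGP_BALBcJ_G0016221, and only in MGP_BALBcJ_G0024145 do they overlap.

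The values of rows with adjacent identifier numbers did not enter the rule for the 3 genes, and their differences were tested. Earlier results of these data were known when the rows were chosen. The test was edgeR's quasi-likelihood test over all 16941 genes tested, with a gene called at a Benjamini-Hochberg adjusted p under 0.05. This called 8.37% of all tested genes, 1.97% lower and 6.40% higher in gp120tg. Rows within 10 numbers on either side were considered. Whether consecutive numbers mean neighbouring positions in the genome is not stated in the labels or the file.

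The 2 numbers after Novel01434 differed between genotypes in opposite directions, and the other 10 tested rows around it were not called. Of the 20 rows within 10 numbers, 12 were tested, of which 1 was called lower and 1 higher. Among all 982 tested models of this kind, 8.96% were called, 4.58% lower and 4.38% higher, so 2 of 12 is too small a count to set apart from the background. At an unadjusted p under 0.05 there were 7 of the 12, where 20.1% of all tested models of this kind had one; the 7 include both called rows. Both calls lay within 2 numbers of Novel01434. Both were in rows that passed the filter on low counts only through the genotype where they were higher. The counts that include them are therefore a description.

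Novel01435, the next number, rose. It had 99, 98, 102, 54 and 110 reads in gp120tg replicates 1 to 5 and 15, 12, 9, 19 and 11 in WT replicates 1 to 5. The mean was 4.80 ± 0.971 CPM in gp120tg and 0.792 ± 0.261 CPM in WT (SD over 5 libraries each). The fitted rise was 6.04-fold, a log2 fold change of 2.60 ± 0.27 (standard error). The row passed the filter on low counts through its gp120tg libraries, since its WT libraries alone fell just short. No p is therefore given for it as support. Its log2 fold change stayed between 2.49 and 2.84 over the 20 alternative analyses.

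Novel01436, the number after that, was nearly lost together with Novel01434. It had 1, 1, 0, 0 and 2 reads in gp120tg replicates 1 to 5 and 74, 81, 82, 52 and 41 in WT replicates 1 to 5. The mean was 3.97 ± 1.24 CPM in WT and 0.0404 ± 0.0424 CPM in gp120tg (SD over 5 libraries each). The fitted log2 fold change was -6.35 ± 0.51 (standard error). The row passed the filter on low counts through its WT libraries alone, so no p is given for it as support. From the pooled reads the share kept was 1.11% (95% counting interval 0.300% to 2.86%), which overlaps the interval of Novel01434. Over the 20 alternatives the log2 fold change was -6.90 to -6.08. Within WT the 2 rows did not rank all mice alike. WT replicate 3 was the highest for Novel01436 at 5.02 CPM and the lowest for Novel01434 at 10.1 CPM. In WT replicates 1, 2, 4 and 5, Novel01434 was at 15.1, 13.7, 13.2 and 10.2 CPM. There Novel01436 was at 4.67, 4.81, 3.20 and 2.17 CPM, nearly the same order. Replicate 3 was set aside with its values seen, so nothing is read from that order.

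The row before, Novel01433, had 6 reads in all 10 libraries together and was not tested, and Novel01432 was at 0.531 ± 0.233 CPM in gp120tg and 1.02 ± 0.321 CPM in WT (SD, n = 5 per group; edgeR adjusted p = 0.169). Single alternatives called other rows of this window. Novel01427 was called higher with DESeq2 (adjusted p = 0.0372), with limma-voom (adjusted p = 0.037) and, with edgeR, without WT replicate 3 (adjusted p = 0.0314). Also with edgeR, Novel01428 was called lower without gp120tg replicate 4 (adjusted p = 0.0297), Novel01431 was called lower without WT replicate 4 (adjusted p = 0.0469) and Novel01440 was called higher without WT replicate 1 (adjusted p = 0.00817). With all 10 libraries the edgeR adjusted p of these 4 rows was 0.0938 to 0.186.

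**Figure D4:**
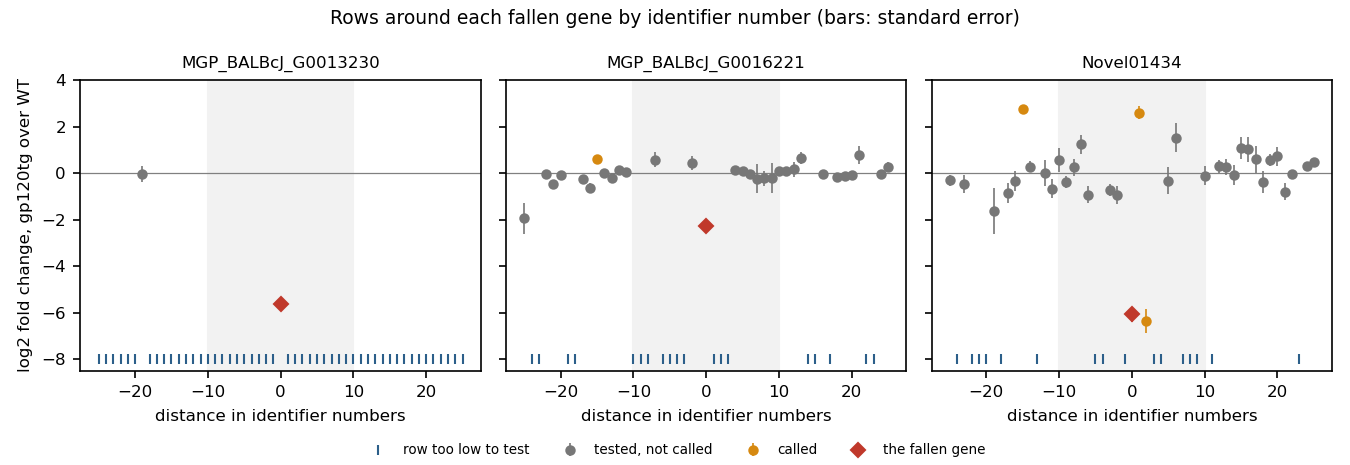
Log2 fold change, gp120tg over WT, of the rows within 25 identifier numbers of each fallen gene, against the distance in numbers. Points are tested rows with their standard error (orange where called, grey where not), red diamonds the fallen genes, ticks at the bottom rows too low to test, and the grey band spans 10 numbers on either side. Called rows stand at 1 and 2 numbers from Novel01434, none stands within 10 numbers of MGP_BALBcJ_G0016221, and MGP_BALBcJ_G0013230 has no tested row within 10.

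Around MGP_BALBcJ_G0016221 no row within 10 numbers was called. Of 19 rows within 10 numbers, 9 were tested and 0 were called, in either direction, by edgeR, by DESeq2 or by limma-voom, and 0 had an unadjusted edgeR p under 0.05. Their log2 fold changes ran from -0.24 to 0.58 with a median of 0.08, against -2.26 for the gene itself and a median of -0.03 over all tested genes. The nearest tested row below, MGP_BALBcJ_G0016219, was at 1.25 ± 0.324 CPM in gp120tg and 0.921 ± 0.275 CPM in WT (SD, n = 5 per group; edgeR adjusted p = 0.496). The nearest above, MGP_BALBcJ_G0016225, was at 69.8 ± 19.1 CPM in gp120tg and 64.1 ± 12.5 CPM in WT (SD, n = 5 per group; edgeR adjusted p = 0.777). The lowest adjusted p of the 9 rows was that of MGP_BALBcJ_G0016214, 0.384. The closest called row, MGP_BALBcJ_G0016206, stood 15 numbers away and was higher in gp120tg (log2 fold change 0.61, edgeR adjusted p = 0.0049). It was the only called row among the 30 tested within 25 numbers, of which 5 had an unadjusted p under 0.05, against 19.9% of all tested genes. The lowest log2 fold change in the wider window was that of MGP_BALBcJ_G0016196, 25 numbers below, at -1.95 ± 0.67 (standard error), with 50 reads in gp120tg and 169 in WT and an edgeR adjusted p of 0.11.

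MGP_BALBcJ_G0013230 stood alone among rows that were silent or nearly so in both genotypes. Of the 20 rows within 10 numbers, 6 had no read in any library, and the others reached at most 12 reads in a library, so none was tested. Within 25 numbers, 21 of 50 rows had no read at all and only MGP_BALBcJ_G0013211 was tested. It stands 19 numbers below, had 10 to 18 reads in gp120tg and 6 to 16 in WT, and did not pass the threshold (log2 fold change -0.03 ± 0.33, standard error, with an edgeR adjusted p of 0.972). The next tested number above, MGP_BALBcJ_G0013333, was 103 away (log2 fold change -0.20 ± 0.24, standard error, with an edgeR adjusted p of 0.724), and the closest called row was 323 away. At this depth a fall shared by the neighbouring rows could not have been detected, since their WT counts were already near 0.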

How the data were processed

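The authors deposited raw read counts per gene, 1 column per library, with no normalization. Per the submitters' processing notes, STAR, Picard, SAMtools 0.1.18, GATK and HTSeq 0.5.4 were used, with no roles stated. Genome build, annotation release and strand setting: not given in the sources used here. Whether reads of overlapping antisense genes were told apart is therefore not known. The 3 genes, the windows and the tests were chosen with earlier results of these data known.

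From the counts, 16941 genes passed edgeR's filter by group. edgeR 4.0.16 (R 4.3.3) was run with TMM factors, robust quasi-likelihood fits, all 10 libraries and group as the only term, and Benjamini-Hochberg adjustment over all genes tested. Standard errors are the absolute log2 fold change over the square root of F. The script was first tested on simulated data. Nothing says that the mice came from separate litters or days, so p-values measure the spread between these libraries. Log2 CPM for correlations used a prior count of 2. Counting intervals are exact 95% binomial intervals of the read counts, and reads carry no molecular identifiers.

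Genes named besides the 3 are the nearest tested row on either side of each, rows called within 10 numbers, the 3 genes most alike by each measure of likeness and the 5 other called genes with the lowest log2 fold change at a WT mean of 5 CPM or more. Other rows were named after their values were seen. Cell type markers fixed as gene symbols matched 0 identifiers and were not used. Alternatives were other scalings, filters, DESeq2 1.42.0, limma-voom 3.58.1, a replicate block, windows of 5 and 25 numbers, other limits and leaving out each library. Leaving out sets of 3 libraries was chosen after seeing the data.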

Additional observations from a re-analysis of the deposited data

Results flagged for a closer look

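By Dixon's criterion for outlying values, 5 of the 30 groups of 5 values examined (the 3 fallen genes, their named neighbours and the 5 other deep falls, in each genotype) held such a value. Chance flags about 1 in 20 among continuous values, a rate that does not carry over to groups of so few reads as 4 of the 5 here. All 5 lay in gp120tg. Novel01434 was at 0.406 CPM in gp120tg replicate 5, above the 0.0528 to 0.154 CPM of the other 4, and MGP_BALBcJ_G0024406 was at 1.57 CPM in the same library, above 0.205 to 0.522 CPM. MGP_BALBcJ_G0021319 was at 0.741 CPM in gp120tg replicate 1, against 0 to 0.205 CPM in the others, and MGP_BALBcJ_G0010729 was at 0.116 CPM in gp120tg replicate 4 and at 0 in the others. Novel01435, the neighbour that rose, was lowest in gp120tg replicate 4 at 3.13 CPM, below 4.89 to 5.58 CPM.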

How the results depend on the processing

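The 3 fallen genes were tested and lower in gp120tg in all 20 alternative fits, a direction that their choice largely fixes. Leaving out the 3 libraries that hold MGP_BALBcJ_G0007527 moved the log2 fold change to -6.28 for MGP_BALBcJ_G0013230 and to -2.54 for MGP_BALBcJ_G0016221, which then kept 17.2%. Those libraries had the highest gp120tg levels of both genes, so a deeper fall follows from leaving them out. For Novel01434 the log2 fold change was -6.63 to -5.85 with 1 library left out. Of all genes, 1418 were called and 333 were lower; 557 were lower with DESeq2, 465 without gp120tg replicate 4 and WT replicates 4 and 5, 199 (of 989 called) without the 3 libraries that hold MGP_BALBcJ_G0007527, and 211 (without WT replicate 1) to 305 with 1 library left out, 219 being the number without gp120tg replicate 1. Among the neighbours of Novel01434, 2 were called higher with DESeq2, limma-voom or a window of 25 numbers, and 1 to 2 higher and 1 to 2 lower with 1 library left out. Around MGP_BALBcJ_G0016221, 1 was called higher with the window of 25. Near-complete losses numbered 3 with a limit of 2.5%, and partial reductions 29 from a WT mean of 1 CPM and 6 to 15 with 1 library left out. The small log2 fold change of MGP_BALBcJ_G0013211 turned to 0.016 with library totals only, to 0.026 without gp120tg replicate 4 and WT replicates 4 and 5 and spanned -0.188 to 0.0737 with 1 library left out; that of MGP_BALBcJ_G0016225 turned to -0.13 without the 3 libraries that hold MGP_BALBcJ_G0007527 and spanned -0.0216 to 0.254. The cause was not tested. Same-numbered replicates of the genotypes did not deviate together (r of -0.17 to 0.33 over genes, and 0 of 5 matched best with their own number), and the fit with a replicate block called 1162 genes, 270 of them lower, with the same calls among the neighbours. Depth limits the lost genes, at 1 to 10 reads in each gp120tg library.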

Other observations

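Consecutive numbers that change in opposite directions, as Novel01435 and Novel01436 do, also occurred elsewhere among the numbered models without a prefix. Leaving out every pair that holds Novel01434, Novel01435 or Novel01436, 626 pairs of tested models had consecutive numbers. In 7 of them both were called by edgeR's test, of which 4 went in opposite directions, 2 were both higher and 1 was both lower. Of 611 such pairs that are 2 numbers apart, 5 had both called, 3 of them both lower. Among MGP_BALBcJ identifiers, 11728 pairs had consecutive numbers and 131 had both members called, 29 of these in opposite directions, 88 both higher and 14 both lower. Taken singly, 8.96% of the tested models without a prefix were called, 4.58% lower and 4.38% higher. Of all tested genes, 1.97% were called lower and 6.40% higher. How many pairs these shares alone would give was not worked out. The pairs were counted without a test and share members, so no recurring pattern is read from them.

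Novel01419, named after its values were seen, stands 15 numbers below Novel01434 and rose 6.79-fold, with 147 ± 28.6 CPM in gp120tg against 21.7 ± 4.12 CPM in WT (SD, n = 5 per group; edgeR, adjusted p = 7.85e-07). Because the row was named in this way, its p supports nothing.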
